A study of Homo sapiens with 2 samples.

Results

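The genes described here are the keratins, claudins, cadherins, plakophilins, tight junction scaffolds, Grainyhead-like factors and CEACAM adhesion proteins that the array's annotation names. They were chosen by the first letters of their symbol, without antisense symbols and pseudogenes. That gave 138 of 13763 named genes, and 33 of the 138 reached the level, called the floor below, from which a difference was read. A gene with several probe sets was read from the one that was brightest over the pair of arrays. The letters also took in 9 genes that belong to none of these families, among them the claudin-domain genes CLDND1 and CLDND2, the cohesion factor gene DSCC1 and the neural adhesion gene DSCAML1. They are included in the counts over all members and described apart from the families. The letters for gap junction connexins (GJA, GJB and GJC) matched no named gene.

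Total RNA of S2-013 cells, a human pancreatic cancer line, was measured on Affymetrix whole-transcript arrays. The cells of both arrays carried a HOXB7 knockdown and had been transfected with a plasmid that restores HOXB7, a homeobox transcription factor. One culture was treated with a MEK inhibitor and the other, called the control in the labels, was not. Per the series' design text, the arrays served to look for factors and pathways controlled by HOXB7 and MEK. Which inhibitor was used, how much and for how long is not stated in the labels, nor is whether the cells were 1 clone. There was 1 array per group, so there are no replicates, no value has an error and no test was run. A lower value in such bulk RNA can come from fewer cells of a kind or from less RNA per cell, and these cannot be told apart.

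An epithelial sheet is held together by several structures. Claudins are membrane proteins that form the strands of tight junctions, which seal the space between cells, and the TJP (ZO) proteins anchor those strands to actin. Desmosomes are spot junctions built from the cadherins desmocollin (DSC) and desmoglein (DSG), which plakophilins (PKP) and desmoplakin tie to keratin filaments. A keratin filament is made of pairs of a type I and a type II keratin, and ductal cells of the pancreas use the simple epithelial set KRT7, KRT8, KRT18 and KRT19. GRHL2 is a transcription factor that maintains the expression of junction genes, and CEACAM proteins are immunoglobulin-like adhesion molecules of the cell surface, several of which are abundant in gastrointestinal tumours. MEK activates the kinase ERK, and loss of epithelial junctions in response to sustained ERK signalling is well known.

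The values are log2 signals per probe set, so a difference of 1 is 2-fold. Only genes whose signal reached the floor of 4.78 on at least 1 array were compared, which left 7164. The floor is the median, over named genes, of each gene's mean signal. The only error these arrays hold is how far probe sets of 1 gene differ. Of the genes with at least 2 such probe sets above the floor, 45 were left out because some of these had identical values. Over the other 145, the differences of the brightest pair disagreed by a median of 0.14, and by less than 0.56 in 95% of genes. This covers probe error and not the variation between cultures. HOXB7 read 5.84 without and 5.85 with the inhibitor. Of a list of 12 ERK-dependent genes, among them DUSP6, SPRY4 and EGR1, all 12 were lower with it and 9 by at least 2-fold. Of the named ductal markers KRT7, KRT8, KRT18, KRT19, EPCAM and SOX9, all 6 reached the floor, and no fibroblast marker of 3 did (2.13 to 4.40). The floor was reached by 2 of 5 endothelial markers (CLDN5 and ESAM), 2 of 3 leukocyte markers (CD68 and TYROBP) and 1 of 5 acinar and endocrine markers (CTRC). The summed signal of each list, as log2, was 12.2 with and 12.4 without the inhibitor for ductal markers, 4.79 and 4.92 for fibroblast markers, 6.62 and 6.86 for endothelial markers, 8.69 and 9.09 for leukocyte markers and 6.11 and 6.06 for acinar and endocrine markers. The brightest gene weighs most in such a sum. It was CD68 in the leukocyte list (8.53 with and 8.95 without the inhibitor) and KRT18 in the ductal list (11.3 and 11.6). The part of the differences between these sums in the results below was not tested.

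Among the 33 members above the floor, 2 were at least 2-fold lower with the inhibitor and 0 were 2-fold higher. Over all 7164 genes 1.05% were 2-fold lower and 0.628% were 2-fold higher, 1.68% together. At 1.5-fold, a difference of 0.585, 3 members were higher (background 4.62%) and 3 were lower (background 3.60%). Those 6 are 18.2% of the 33, against 8.22% of all genes. At 3-fold 1 member, CEACAM6, was lower (background 0.195%) and 0 were higher (background 0.0838%), against 0.279% of all genes in either direction. The 6 were the adhesion genes CEACAM6 and CEACAM1 and the keratin gene KRT23 on the lower side, and the claudin genes CLDN4 and CLDN3 and the desmocollin gene DSC2 on the higher side. Over all 7164 genes, 3858 were higher and 3303 lower. The directions of the 33 were nearly even in number, with 16 higher and 17 lower. Their median difference was -0.01, against 0.03 for all genes above the floor. Without the 4 genes above the floor that were matched by letters alone, 29 members were left, 13 higher and 16 lower, with a median of -0.04, and the 6 past 1.5-fold were 20.7% of them. The middle 50% of all 33 lay between -0.19 and 0.28, and the middle 50% of all genes between -0.15 and 0.22. Of the 33, 30 were above the floor on both arrays. KRT7 reached it only with the inhibitor, and KRT23 and CLDN2 only without it, so for these the filter favoured a difference.

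**Figure D1:**
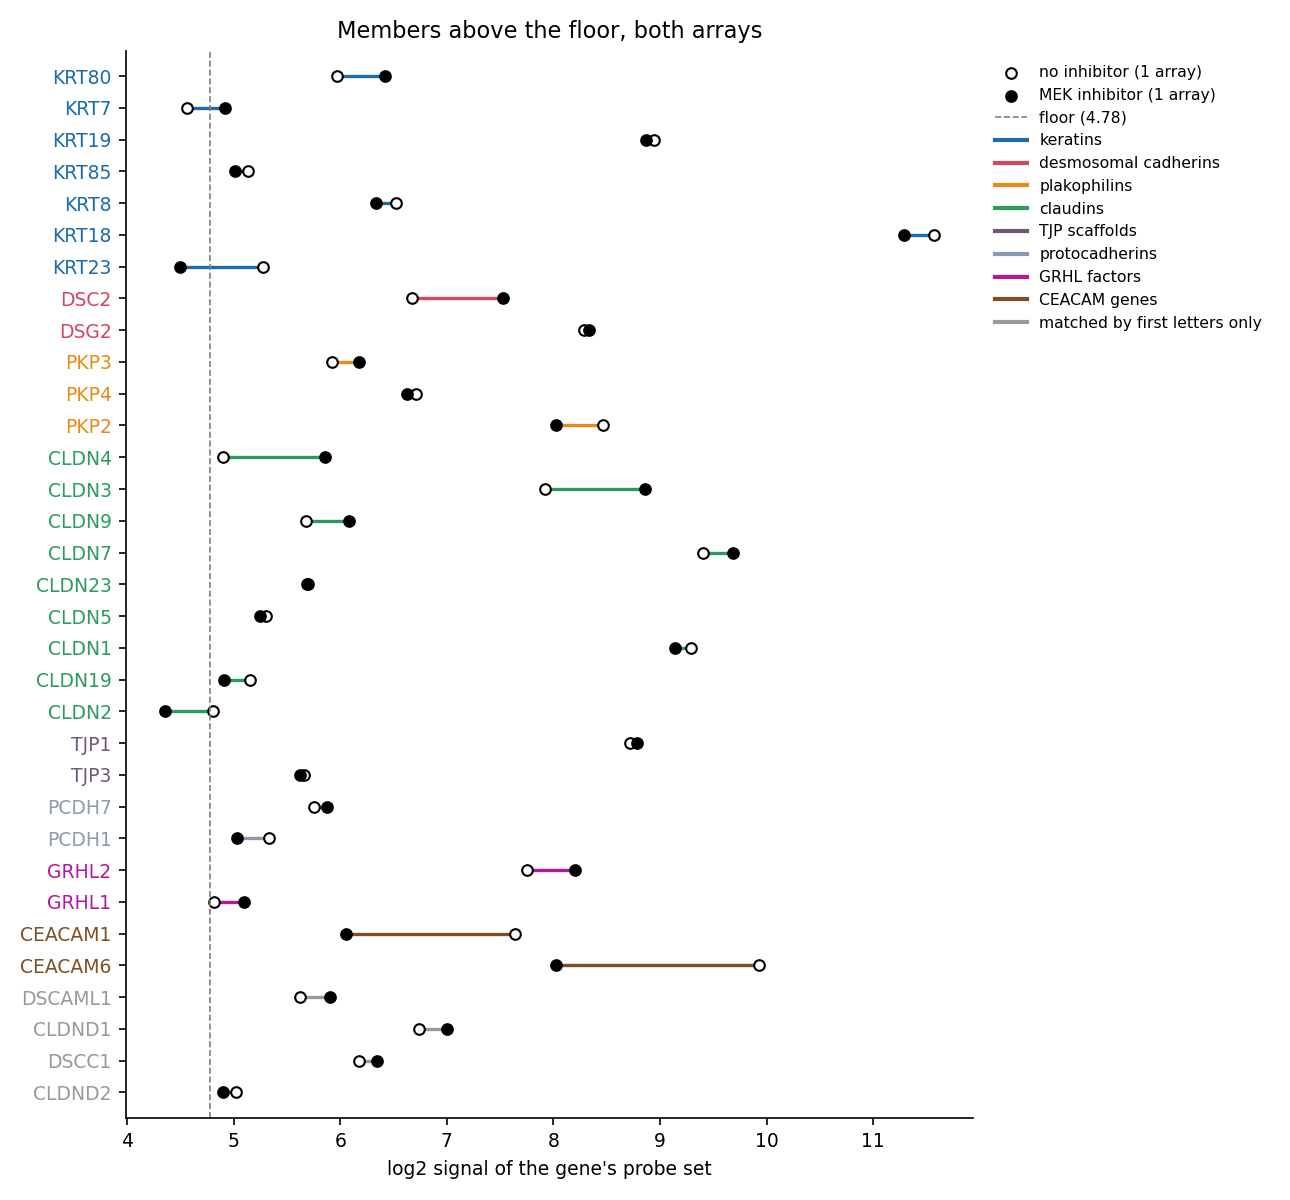
Log2 signal of the 33 members above the floor on the array without (open circles) and with the MEK inhibitor (filled circles), 1 array each, grouped and coloured by family; the dashed line is the floor of 4.78. CEACAM6 and CEACAM1 have the longest lines and point to lower signal, while CLDN4, CLDN3 and DSC2 point to higher signal and the other lines are shorter.

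CEACAM6, a lipid-anchored adhesion protein that is overexpressed in many pancreatic cancers, read 9.92 without and 8.03 with the inhibitor. It was bright on both arrays and lower on the treated one. The difference was -1.90, or 3.72-fold, and ranked 8 from the lowest of 7164 genes. CEACAM1, a transmembrane member of the family whose tail carries inhibitory signalling motifs, read 7.63 without and 6.05 with the inhibitor. Its difference of -1.58, or 2.99-fold, ranked 15 from the lowest. Both genes ended above the floor, so neither fold ends in the dim range. Each had 1 probe set, so neither could be set against a second one.

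The other 9 named CEACAM genes lay below the floor on both arrays, between 2.34 and 4.73, with differences from -0.25 (CEACAM7) to 0.21 (CEACAM16). CEACAM5, which encodes the carcinoembryonic antigen used as a serum tumour marker, read 3.001 without and 2.79 with the inhibitor. CEACAM5 and CEACAM3, an adhesion receptor gene of granulocytes, flank CEACAM6 in the order of protein-coding genes on chromosome 19. CEACAM3 read 4.01 and 3.82. Beside CEACAM1 lie CEACAM8 (2.83 on both arrays) and CXCL17 (3.68 on both). The large differences were thus read in 2 genes of the cluster, both with dim neighbours. CEACAM genes share sequence, and whether these probe sets match more than 1 of them is not known here.

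The stretch before the start of each of these genes is shown because they were lower together. Each is the 250 bases upstream of the gene's start in RefSeq (GRCh38.p14), 5′ to 3′ on the gene's strand. CEACAM1 is at chr19:42528482-42528731 on the minus strand and CEACAM6 at chr19:41755280-41755529 on the plus strand. Capitals would mark the 4 motifs searched, and neither stretch holds one.
CEACAM1: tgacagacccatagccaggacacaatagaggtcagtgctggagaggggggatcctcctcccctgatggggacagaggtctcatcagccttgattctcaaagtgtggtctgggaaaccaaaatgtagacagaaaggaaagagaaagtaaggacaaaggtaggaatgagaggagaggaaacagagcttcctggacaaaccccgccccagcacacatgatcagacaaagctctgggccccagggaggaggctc
CEACAM6: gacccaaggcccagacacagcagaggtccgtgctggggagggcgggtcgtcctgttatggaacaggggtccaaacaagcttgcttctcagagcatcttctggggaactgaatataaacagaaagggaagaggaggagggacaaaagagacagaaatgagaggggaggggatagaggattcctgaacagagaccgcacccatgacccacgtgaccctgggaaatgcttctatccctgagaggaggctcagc

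In a global alignment these stretches were identical at 68.2% of 264 aligned positions. Of 7 relatives below the floor, 4 were more like CEACAM6 than that (CEACAM7 at 79.9%, CEACAM5 at 74.6%, CEACAM3 at 71.1% and CEACAM4 at 69.6%) and 3 were less (CEACAM8 at 58.0%, CEACAM21 at 49.0% and CEACAM20 at 46.2%). Of the same 7, only CEACAM7 (71.9%) was more like CEACAM1 than CEACAM6 was, and the other 6 ran from 45.5% to 66.2%.

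Of 24 named claudin genes, 9 were above the floor, 4 of them higher and 5 lower, with a median difference of -0.01 and a mean of 0.18. The higher side held the larger differences. CLDN4, a barrier-forming claudin of simple epithelia, read 4.90 without and 5.85 with the inhibitor, a difference of 0.95 or 1.94-fold, starting just above the floor. CLDN3, its close relative and like it a receptor for Clostridium perfringens enterotoxin, read 7.92 without and 8.86 with the inhibitor. That is a difference of 0.93, or 1.91-fold, between signals well above the floor. Both claudins were higher on the treated array by nearly the same amount, and ranked 59 and 61 from the highest of 7164 genes.

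CLDN9 read 5.68 without and 6.08 with the inhibitor (difference 0.41). CLDN7, another barrier claudin and one of the bright members, read 9.41 without and 9.68 with it (0.28). Both were higher on the treated array by less than 0.56, the disagreement of probe sets that 95% of genes stayed under. CLDN1, which is needed for the water barrier of skin, read 9.29 and 9.14 (-0.16), also within that disagreement. CLDN23 was nearly equal on both arrays (5.69, difference -0.01). CLDN5, the main claudin of blood vessel lining and an endothelial marker, read 5.30 and 5.24 (-0.06). CLDN19, known from kidney tubules, read 5.15 and 4.90 (-0.25). CLDN2, which forms a pore for cations and water and so makes a junction leakier, read 4.80 without and 4.35 with the inhibitor (-0.45). It passed the floor on the untreated array only.

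The other 15 claudin genes lay between 2.09 and 4.63. CLDN18, whose stomach form is a therapeutic target in gastric and pancreatic cancer, read 3.56 and 3.50. CLDN10 had the lowest difference of these (-0.71), between dim signals of 4.63 and 3.92.

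CLDN3 and CLDN4 are next to each other in the order of protein-coding genes on chromosome 7. The gene on the outer side of CLDN4, METTL27, read 4.64 without and 5.07 with the inhibitor (0.43). METTL27 reached the floor only with the inhibitor, so the filter favoured a higher value. On the outer side of CLDN3, ABHD11 was below the floor (3.10 and 3.23). The 2 genes beyond it differed the other way: STX1A, a vesicle fusion protein gene, by -0.74 (5.60 and 4.86) and BUD23, an RNA methyltransferase gene, by -0.46 (5.90 and 5.44). Genes around the claudin pair therefore did not all differ in one direction.

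The upstream stretches of this pair and of DSC2, described next, are shown because these 3 members were the ones past 1.5-fold higher. They are again the 250 bases before the RefSeq start (GRCh38.p14). CLDN3 is at chr7:73770271-73770520 on the minus strand, CLDN4 at chr7:73830746-73830995 on the plus strand and DSC2 at chr18:31102422-31102671 on the minus strand. The capitals mark AP-1 motifs (TGANTCA, bound by FOS and JUN dimers) in CLDN4 and the E2-box (CAGGTG, bound by SNAI and ZEB repressors) in DSC2.
CLDN3: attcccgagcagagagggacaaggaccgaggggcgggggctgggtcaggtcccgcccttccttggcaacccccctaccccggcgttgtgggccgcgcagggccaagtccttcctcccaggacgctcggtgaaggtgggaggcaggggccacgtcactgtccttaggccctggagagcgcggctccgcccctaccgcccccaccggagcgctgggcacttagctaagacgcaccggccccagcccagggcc
CLDN4: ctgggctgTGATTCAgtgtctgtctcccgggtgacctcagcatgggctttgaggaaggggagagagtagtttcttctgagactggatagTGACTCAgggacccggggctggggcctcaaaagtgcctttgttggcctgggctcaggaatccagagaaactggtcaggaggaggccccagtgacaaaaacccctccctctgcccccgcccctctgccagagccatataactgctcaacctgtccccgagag
DSC2: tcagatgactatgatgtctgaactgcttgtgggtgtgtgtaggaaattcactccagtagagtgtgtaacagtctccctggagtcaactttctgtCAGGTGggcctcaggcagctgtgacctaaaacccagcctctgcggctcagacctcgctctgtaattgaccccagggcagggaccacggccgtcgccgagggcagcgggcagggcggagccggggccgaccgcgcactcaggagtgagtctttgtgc

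CLDN4 holds an AP-1 match starting 242 bases and another starting 161 bases before the gene's start, and DSC2 an E2-box starting 156 bases before it. CLDN3 holds none of the 4 motifs, and its stretch was identical to that of CLDN4 at 50.5% of 295 aligned positions. The 4 motifs were searched on both strands: AP-1, the E2-box, the Grainyhead core ACCGGT and the ETS core CGGAAGT. None of these overlaps another in the stretches shown. Upstream stretches were matched for 17 of the 33 members above the floor. Of those 17, 2 held the AP-1 motif (CLDN2 and CLDN4), 4 the E2-box (DSC2, DSG2, PCDH1 and TJP1), 1 the ETS core (KRT8) and 0 the Grainyhead core. Over 27305 genes with such a stretch, 6.59% held AP-1, 17.5% the E2-box, 6.02% the ETS core and 1.41% the Grainyhead core. Over the 5847 of these genes that were above the floor, as the 17 members were, 3.63% held AP-1, 15.5% the E2-box and 1.80% the Grainyhead core, and 701 genes held the ETS core. A match is a run of letters and not a binding site.

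Among the desmosomal cadherins, 2 of 7 were above the floor. DSC2, the desmocollin of simple epithelia, read 6.68 without and 7.53 with the inhibitor. It was higher on the treated array, by 0.85 or 1.81-fold, and ranked 92 from the highest. DSC2 had 1 probe set, as had CLDN3, CLDN4 and KRT23, so none of these could be set against a second one. DSG2, the desmoglein that pairs with DSC2 in the same tissues, read 8.29 and 8.33, a difference of 0.04. The signal of the desmocollin was thus higher while that of its partner was nearly equal on both arrays. DSC1, DSC3, DSG1, DSG3 and DSG4, which serve mainly in stratified epithelia and hair, lay between 2.04 and 3.31. They include DSC3 and DSC1, the desmocollin genes on either side of DSC2 on chromosome 18.

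The plakophilins, which link desmosomal cadherins to desmoplakin, differed in direction. PKP2, the form found in simple epithelia and heart, read 8.47 without and 8.02 with the inhibitor (-0.45, or 1.36-fold lower). PKP3 read 5.92 and 6.18 (0.26). PKP4, a relative that is found mostly at adherens junctions, read 6.71 and 6.63 (-0.08). PKP1, the form of stratified epithelia, was below the floor (3.28 and 3.33). None of these reached 1.5-fold. Of the plaque and envelope partners, desmoplakin (DSP) read 8.06 and 8.24 (0.17), plakoglobin (JUP) 8.59 and 8.81 (0.22) and envoplakin (EVPL) 6.35 and 5.82 (-0.53).

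**Figure D2:**
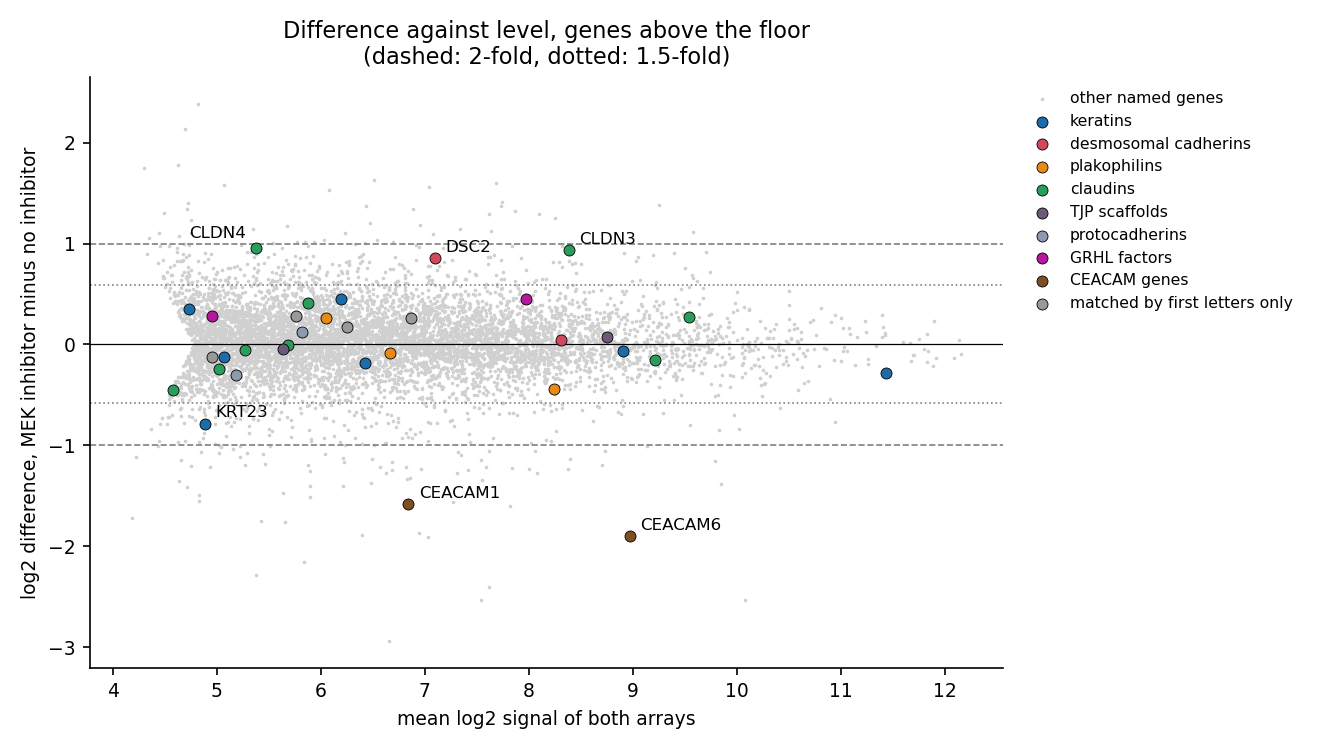
Log2 difference, MEK inhibitor minus no inhibitor, against the mean log2 signal of both arrays for genes above the floor, 1 array per group; grey points are other named genes and coloured points the members by family, with dashed lines at 2-fold and dotted lines at 1.5-fold. CEACAM6 (-1.90) and CEACAM1 (-1.58) lie under the 2-fold line, CLDN4, CLDN3 and DSC2 lie just under the upper one, and the remaining members lie within the dotted lines except KRT23 (-0.78).

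Of 47 named keratin genes, 7 were above the floor, 5 lower and 2 higher, with a median difference of -0.12. They include the simple epithelial keratins of the ductal marker list. KRT19, a type I keratin and a standard marker of ductal cells, read 8.94 without and 8.87 with the inhibitor (-0.07). KRT8, a type II keratin, read 6.52 and 6.33 (-0.19). KRT7, the type II keratin typical of ducts, read 4.56 and 4.91 (0.35), and was thus near the floor on both arrays. KRT20, a type I keratin of the intestinal lining, was below it (2.67 and 2.92). None of these reached 1.5-fold.

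KRT18, the type I partner of KRT8, had 2 probe sets. The brighter (16938654) read 11.6 without and 11.3 with the inhibitor, a difference of -0.29. The dimmer (16751554) read 7.54 and 6.88, a difference of -0.66. Both were lower on the treated array, but they lie on either side of 1.5-fold, and their mean was -0.47. The KRT18 gene is on chromosome 12. Identifiers on this array run along the chromosomes, and the nearest 20 named probe sets of the dimmer one were all of chromosome 12 genes, whereas those of the brighter one were all of chromosome 3 genes. KRT18 has many processed copies in the genome, so which transcript the brighter probe set reads is uncertain. With the dimmer one in its place, chosen after its values were seen, 7 members in place of 6 were past 1.5-fold.

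KRT23, a type I keratin found in gland and tumour epithelia, read 5.28 without and 4.49 with the inhibitor. Its difference of -0.78, or 1.72-fold, began a little above the floor and ended below it. Its neighbours in the type I cluster on chromosome 17, KRT20 and KRT39, were below the floor. KRT80, a type II keratin of differentiated epithelial cells, had the largest difference among the 4 of that type above the floor, reading 5.97 without and 6.42 with the inhibitor (0.45, or 1.36-fold higher). KRT85, a hair keratin, read 5.13 and 5.01 (-0.12). By type, the 3 type I keratins above the floor had differences from -0.78 to -0.07, all lower, and the 4 of type II from -0.19 to 0.45.

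Of the keratins of stratified epithelia, 13 were counted, namely the named ones from KRT1 to KRT6C, KRT9 and KRT10 to KRT16. Of these, 0 were above the floor. They include the basal layer keratins KRT5 and KRT14 and the surface layer keratins KRT1 and KRT10, and lay between 2.00 and 4.26. KRT6A, KRT6B and KRT17 were not among the named genes and are not analysed here. KRT76, KRT77 and KRT78, also below the floor, were not in this count. KRT14 read 3.77 and 4.23, and KRT16, a keratin of wounded and hyperproliferative skin, 4.25 and 4.01. Of 22 keratins of hair and its root sheath only KRT85 reached the floor. KRT83 had the highest difference of the keratins below it (0.64), between signals of 2.94 and 3.58. Keratin genes share long stretches of sequence, and signal of one copy can reach the probes of another.

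The scaffolds under the tight junction were close to equal on both arrays. TJP1, or ZO-1, read 8.71 without and 8.78 with the inhibitor (0.07), and TJP3, or ZO-3, read 5.66 and 5.62 (-0.04).

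The Grainyhead-like factors were both on the higher side. GRHL2 read 7.75 without and 8.20 with the inhibitor (0.45, or 1.36-fold). GRHL1, known for desmosomal gene control in skin, read 4.81 and 5.10 (0.28), near the floor. GRHL3, a factor of the skin barrier, was below it (2.99 and 3.05). Neither difference reached 1.5-fold.

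The rule found 2 genes of the CDH series, CDH23 (3.90 on both arrays), a cadherin of inner ear hair cells, and CDH26 (4.12 and 3.95). Both were below the floor. E-cadherin (CDH1), N-cadherin (CDH2) and P-cadherin (CDH3) are not analysed here. Of 29 protocadherins, cadherin relatives best known from neurons, 2 were above the floor. PCDH1, an adhesion protein of airway epithelium, read 5.33 and 5.03 (-0.30), and PCDH7 read 5.76 and 5.88 (0.12). All 16 beta-cluster protocadherins were below the floor (1.89 to 3.42), and PCDHB16 had the lowest difference of any member below it (-0.82), between 3.14 and 2.32. PCDHB16, CLDN10 and KRT83 were the 3 of 105 members below the floor that passed 1.5-fold, and 0 passed 2-fold. Over all 6599 named genes below the floor, 3.15% passed 1.5-fold and 0.333% passed 2-fold, so the members' share was near the background.

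The 9 genes matched by letters alone had 4 above the floor with differences between -0.12 (CLDND2) and 0.28 (DSCAML1). CLDND1 read 6.74 and 7.004 in the probe set used (0.27), and 6.76 and 6.79 in its other one (0.03). DSCC1, which loads the replication clamp in sister chromatid cohesion, read 6.17 and 6.34 (0.17).

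**Figure D3:**
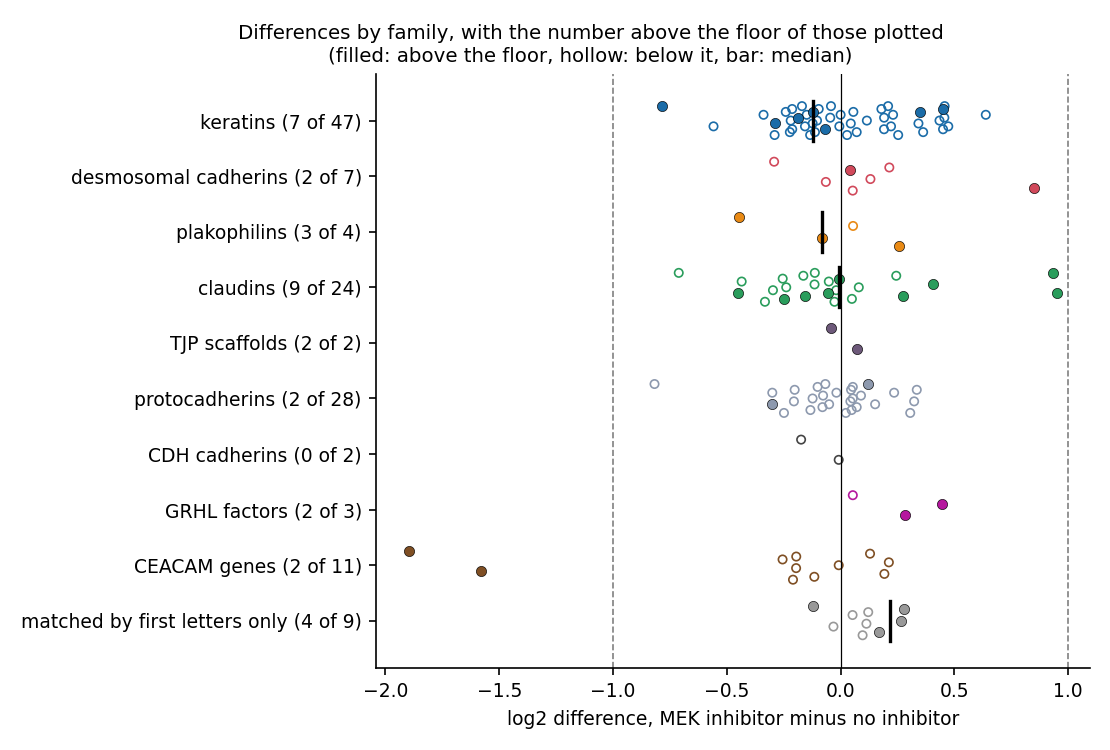
Log2 difference, MEK inhibitor minus no inhibitor, of each member by family, 1 array per group; filled points are above the floor, hollow points below it, black bars are medians where 3 or more are above, and dashed lines mark 2-fold. The level of 1 Y-linked protocadherin gene below the floor is not plotted. The 2 filled CEACAM points stand apart at -1.90 and -1.58 while the 9 hollow ones have a median of -0.12. Within claudins and keratins the filled points spread to both sides of 0, and the 2 filled desmosomal cadherins lie at 0.04 and 0.85.

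Other genes of the same structures were described by lists. These were not chosen by how they moved here, but results of these arrays were known when they were written. The annotation named 4 of 5 listed desmosome symbols, 6 of 12 for adherens junctions and 10 of 14 for tight junctions. It named 10 of 16 for polarity, 3 of 9 for hemidesmosomes and 3 of 7 for connexins and pannexins. The others, among them CTNNB1, CTNND1, ITGA6 and ITGB4, are not analysed here, so the lists cover these structures only in part. Together the junction, polarity, hemidesmosome and pannexin lists had 29 genes above the floor, of which 23 were higher and 6 lower. Over all 7164 genes above the floor, 3858 were higher and 3303 lower. The median difference of the 29 was 0.23, against 0.03 for all genes. None of the 29 reached 2-fold, and 2 were past 1.5-fold higher (background 4.62%). These were the LIM protein gene AJUBA, an adherens junction and Hippo pathway adaptor, at 4.92 and 5.79 (0.87), and cingulin (CGN), which ties tight junctions to the cytoskeleton, at 5.06 and 5.86 (0.80).

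Of 7 tight junction partners above the floor, 5 were higher, with a median of 0.32. Occludin (OCLN), a strand protein, read 7.38 and 7.75 (0.37), and the tricellular junction gene ILDR1 read 4.43 and 4.98 (0.54). LSR, another protein of tricellular contacts, was on the lower side (9.21 and 8.92, -0.29). Of 5 adherens junction partners above the floor, 3 were higher, with a median of 0.37, among them the nectin gene NECTIN2 (7.74 and 8.19, 0.44). That median is the difference of NECTIN4 (4.54 and 4.91). NECTIN4 and ILDR1 reached the floor only with the inhibitor, so for these the filter favoured a higher value. Vinculin (VCL) read 10.5 and 10.4 (-0.10).

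All 8 polarity genes above the floor were on the higher side, with differences from 0.00 (PARD6A) to 0.50 (PATJ, a scaffold of the Crumbs complex) and a median of 0.22. CRB3, the epithelial Crumbs protein, read 5.79 and 6.08 (0.29), and LLGL2, of the Scribble group, 5.48 and 5.79 (0.31). Of the 3 hemidesmosome genes that the annotation names, 2 were higher, with DST at 0.35 and CD151 at 0.23. The pannexin genes PANX2 and PANX1 read 0.33 and 0.28. All of these lie within 0.56, the disagreement of probe sets that 95% of genes stayed under.

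Intermediate filament genes outside the keratins were mostly on the lower side. There were 7 above the floor, 5 of them lower, and the median difference of the 7 was -0.28. They include the lamin genes LMNA (-0.31), LMNB2 (-0.28) and LMNB1 (0.03), and GFAP was higher (0.27). GFAP reached the floor only with the inhibitor (4.535 without and 4.80 with it), so for GFAP the filter favoured a higher value. In the probe sets used, all 7 differences lie within 0.56, the disagreement of probe sets that 95% of genes stayed under. Vimentin (VIM), the filament protein of mesenchymal cells, read 7.33 and 6.94 (-0.39) in the probe set used, and its other 2 probe sets read -0.85 and -0.61, both past 1.5-fold. Desmin (DES), the filament protein of muscle, read 5.92 and 5.38 (-0.54), and -0.21 in its other, dimmer probe set. Of 16 genes of the cornified envelope and squamous differentiation, 2 reached the floor: the protease gene KLK10 (5.91 and 5.38, -0.53) and SFN, or 14-3-3 sigma (8.77 and 9.04, 0.27).

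Epithelial regulators other than GRHL genes were mixed, 6 higher and 4 lower of 10, with a median of 0.02. The surface protein gene EPCAM read 10.5 on both arrays (0.04). The splicing regulator genes ESRP2 and ESRP1 read 0.35 and 0.05, and the ETS factor gene EHF 0.34. TFCP2L1, a relative of the Grainyhead-like factors, read 4.91 and 4.13 (-0.79) and ended below the floor. The 3 repressors of epithelial genes above the floor were all lower. SNAI2, or Slug, which represses junction genes through E2-boxes, read 7.90 without and 6.80 with the inhibitor (-1.09, or 2.13-fold lower). ZEB1 read 5.83 and 5.55 (-0.29) and SNAI3 4.92 and 4.84 (-0.08). SNAI1 (4.45 and 4.18) and ZEB2 (4.34 and 4.02) were below the floor. So were TCF4 (3.81 and 4.10), TWIST1 (2.74 and 2.81) and TWIST2 (3.53 and 3.52), of which TCF4 and TWIST1 were on the higher side. SOX9, a ductal transcription factor of the marker list, read 8.03 and 6.79 (-1.24).

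**Figure D4:**
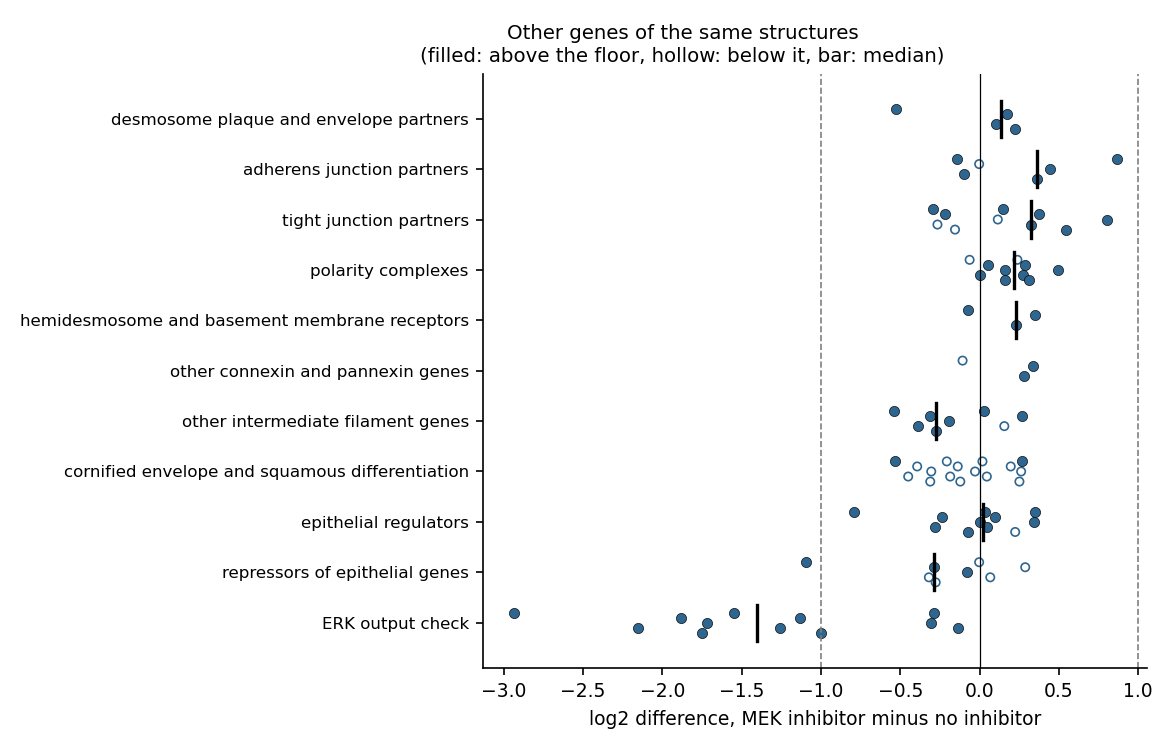
Log2 difference, MEK inhibitor minus no inhibitor, of the named genes of 11 lists, 1 array per group; filled points are above the floor, hollow points below it, black bars are medians where 3 or more are above, and dashed lines mark 2-fold. Medians of the junction and polarity lists lie between 0.14 and 0.37, those of other intermediate filament genes and of the repressors lie at -0.28 and -0.29, and the list of ERK-dependent genes, at -1.40, is on a far larger scale.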

How the data were processed

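The table the authors deposited gives each probe set 1 value per array. The deposited values were taken as log2 signals, summarised per probe set by the authors, because they ran continuously from 1.16 to 13.4 with nearly equal medians (3.46 with and 3.49 without the inhibitor). Expression Console 1.3 was used per the submitters' processing notes; its settings for background, summarisation and normalization are not stated. Equalised quantiles would hide a shift in total RNA. No detection calls were used, so the floor of 4.78 is not a detection limit.

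Samples were grouped by title. Of 53617 probe sets, 16098 had 1 gene symbol and none had several, with the others unnamed here. Probe sets of small RNA (1287, symbols starting with MIR or SCARNA) were left out. Biotypes, gene order and upstream stretches came from RefSeq tables (GRCh38.p14). The members and lists were chosen with earlier results of these data known. Both values are given for members past 1.5-fold, the 10 brightest, and the main simple epithelial keratins, plakophilins, TJP and GRHL genes. Companion genes are named when past 1.5-fold or among a list's largest differences. Other genes were named after their values were seen. The level of 1 Y-linked member is not reported. Alternatives were 2 scalings, 2 filters, averaged probe sets, 3-fold and reduced member sets. The counting was tested on simulated data. Python 3.11.15, numpy 2.4.6, pandas 2.3.3 and statsmodels 0.14.6 were used.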

Additional observations from a re-analysis of the deposited data

How the results depend on the processing

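No paired analysis was possible because there is 1 array per group. No array could be left out either. Of 144 recomputed values, 134 stayed within the median disagreement of probe sets (0.14) or, for counts, within 1.5 times. No single gene among them changed sign, while 3 medians near 0 did: the members' median was 0.02 without CEACAM6, that of the epithelial regulators was -0.01 under either scaling, and that of the claudins was 0.28 under the stricter filter. Part of this agreement was fixed in advance. Centring takes the same 0.03 from every difference, less than the 0.14 allowed, so only counts could have moved. Averaging probe sets cannot change a gene with 1 probe set. No clustered protocadherin was above the floor, so leaving them out changed nothing. Centring on the median difference (0.03) and removing a loess trend moved none of 32 values each. With the floor at the 75th percentile 15 members were left and the claudin median was 0.28 in place of -0.01. At 3-fold 1 member (CEACAM6) passed in place of 2. Without the filter 5 members were past 1.5-fold lower in place of 3, the added ones being dim. KRT18 read -0.47 with averaged probe sets and -0.66 in its dimmer one, an alternative chosen after seeing the data. Medians of the tight junction (0.13) and adherens junction partners (0.18) were smaller without the filter, as was the tight junction one (0.15) with the stricter filter, where the ERK-dependent list read -1.19. With 1 array per group and no measure of background, neither culture variation nor the reliability of dim signals is known.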

Other observations

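Probe sets named for keratin pseudogenes were left out of the comparison, and 3 of 7 of them were above the floor. KRT16P2 read 6.89 without and 6.28 with the inhibitor (-0.61), past 1.5-fold. KRT17P5 read 5.23 and 5.01 (-0.23) and KRT42P 4.996 and 4.75 (-0.25). All 3 were lower on the treated array. KRT16 itself lay below the floor (4.25 and 4.01), so the pseudogene's probe set was the brighter of these relatives, and which copy gives its signal is not known here. The 3 beta-protocadherin pseudogenes and the 5 antisense symbols were below the floor.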
